A study of Mus musculus with 16 samples.

Results

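The genes described here are 10 secreted regulators of BMP and activin signalling in the mouse molar germ, 6 ligands (*Bmp2*, *Bmp3*, *Bmp4*, *Bmp5*, *Bmp7* and *Inhba*) and 4 antagonists (*Fst*, *Nog*, *Chrd* and *Grem1*). They were chosen by gene symbol, and each was read from the probe set of the array that pairs with that symbol alone, 10 of the 19938 genes that have a probe set of their own. Each symbol had exactly 1 such probe set, and all 10 were above a log2 signal of 5, the minimum used here, in all 16 samples. The probe sets were 10476395 for *Bmp2*, 10523506 for *Bmp3*, 10419261 for *Bmp4*, 10587231 for *Bmp5*, 10490129 for *Bmp7*, 10403743 for *Inhba*, 10412260 for *Fst*, 10389752 for *Nog*, 10434528 for *Chrd* and 10485948 for *Grem1*.

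RNA came from mandibular molar germs of mouse embryos at embryonic day 14.5 (E14.5), at which the tooth is at the cap stage. There were 8 pools from *Rsk2-/Y* males, hemizygous knockouts in which excision of exon 2 inactivates the X-linked kinase gene *Rsk2*, and 8 from wild-type (WT) littermate males. All embryos were on a C57Bl6 background, the excision shifts the reading frame, and each pool held 4 hand-dissected tooth germs, from 2 embryos by the study's methods. The sample names fall into a series AZN and a series ABH, with 4 *Rsk2-/Y* and 4 WT pools in each, and the meaning of these names was not found. The question was how ligands and antagonists differed between genotypes, between series and from pool to pool.

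Bone morphogenetic proteins and activins are ligands of the TGF-beta family that bind pairs of type I and type II serine/threonine kinase receptors. BMP receptors phosphorylate SMAD1, SMAD5 and SMAD9, activin receptors phosphorylate SMAD2 and SMAD3, and both enter the nucleus with SMAD4. Noggin, chordin and gremlin bind BMPs outside the cell, and follistatin binds activin most tightly. In the tooth germ, BMP4 and activin from the dental mesenchyme signal to the epithelium, the enamel knot expresses *Bmp2*, *Bmp4* and *Bmp7*, and BMP4 and *Msx1* maintain each other in the mesenchyme.

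*Inhba* and *Bmp4*, the ligands of the dental mesenchyme, differed most between the AZN and ABH pools, whereas *Grem1* and *Chrd*, antagonists of BMPs, differed little, so the start regions of these 4 genes are shown side by side. Each is the window of 300 bases in the RefSeq annotation of GRCm38.p6, 250 before to 50 after the gene's start, printed 5′ to 3′ on the gene's strand. They lie at chr13:16011601-16011900 on the plus strand for *Inhba*, chr14:46390620-46390919 on the minus strand for *Bmp4*, chr2:113758599-113758898 on the minus strand for *Grem1* and chr16:20732877-20733176 on the plus strand for *Chrd*. Windows were at hand for 5 of the 10 genes, *Bmp5* being the fifth. Capitals mark matches, on either strand, to TAATTG, read as CAATTA on the other strand, a core bound by homeodomain proteins, to GGCGCC, the GC-rich motif of BMP-activated SMADs, which is its own complement, and to CAGAC, read as GTCTG on the other strand, the SMAD3 and SMAD4 motif. No marked matches overlapped.
Inhba: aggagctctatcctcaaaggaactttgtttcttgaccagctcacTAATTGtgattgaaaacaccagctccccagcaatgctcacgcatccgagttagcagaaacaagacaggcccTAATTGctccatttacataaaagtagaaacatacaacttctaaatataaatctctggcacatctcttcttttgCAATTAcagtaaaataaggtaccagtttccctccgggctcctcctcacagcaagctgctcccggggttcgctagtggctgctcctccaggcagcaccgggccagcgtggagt
Bmp4: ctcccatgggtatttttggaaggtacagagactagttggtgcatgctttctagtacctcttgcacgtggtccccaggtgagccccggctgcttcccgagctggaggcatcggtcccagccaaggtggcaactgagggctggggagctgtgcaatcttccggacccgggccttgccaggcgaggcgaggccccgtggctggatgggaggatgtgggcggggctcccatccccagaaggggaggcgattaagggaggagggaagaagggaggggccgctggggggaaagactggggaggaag
Grem1: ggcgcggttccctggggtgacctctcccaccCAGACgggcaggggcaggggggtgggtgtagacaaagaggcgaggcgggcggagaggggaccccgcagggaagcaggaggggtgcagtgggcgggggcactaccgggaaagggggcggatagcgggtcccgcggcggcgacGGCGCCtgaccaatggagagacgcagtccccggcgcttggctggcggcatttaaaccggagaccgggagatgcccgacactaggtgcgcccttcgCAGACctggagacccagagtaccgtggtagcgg
Chrd: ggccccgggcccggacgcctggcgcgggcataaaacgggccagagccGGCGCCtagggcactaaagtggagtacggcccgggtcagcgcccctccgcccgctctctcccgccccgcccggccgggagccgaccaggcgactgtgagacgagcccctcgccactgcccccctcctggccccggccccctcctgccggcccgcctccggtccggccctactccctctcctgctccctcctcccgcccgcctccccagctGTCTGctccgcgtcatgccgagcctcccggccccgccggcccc
The *Inhba* window held 3 matches to TAATTG, a motif present in 8% of 32851 such windows, and none to the other marked motifs. The *Bmp4* window held no match to any of them. *Grem1* had 1 GGCGCC and 2 CAGAC, and *Chrd* had 1 of each. GGCGCC was present in 11.9% and CAGAC in 49.6% of all windows. The unmarked motif TATAAA, read as TTTATA on the other strand and present in 13.6% of the windows, was found in that of *Inhba* alone among the 5. The bases of these windows were 47.7% G or C for *Inhba*, 64% for *Bmp4*, 70.7% for *Grem1* and 78.3% for *Chrd*. A match describes the letters only.

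*Rps6ka3*, which encodes RSK2, had log2 signals of 9.74 to 10.40 in *Rsk2-/Y* pools and of 9.61 to 10.22 in WT pools. Arrays of this type place probes along the whole transcript, so this hardly checks the excision of 1 exon. Of the markers of other tissues, all 16 of dental epithelium tested averaged lower and 17 of 18 of skeletal muscle higher in *Rsk2-/Y* pools, none of them called. The epithelial mean ran from 9.56 to 9.97 in *Rsk2-/Y* pools and from 9.75 to 10.32 in WT pools, a difference of -0.25. The muscle mean ran from 7.19 to 9.54 in *Rsk2-/Y* pools and from 7.26 to 8.68 in WT pools, a difference of 0.53, and 2 *Rsk2-/Y* pools, ABH_14A at 9.13 and AZN_MolairesMutant3 at 9.54, were the highest. All 6 osteoblast markers tested also averaged higher in *Rsk2-/Y* pools, with means of 10.33 ± 0.48 in *Rsk2-/Y* and 9.97 ± 0.30 in WT (SD, n = 8 each), a difference of 0.36. All 5 endothelial and all 4 neuron and Schwann cell markers tested averaged lower, with a difference in the marker mean of -0.071 for endothelium and -0.099 for neurons and Schwann cells, and none of these was called. The mean of 11 mesenchyme markers was 10.74 in both genotypes. In such bulk tissue, fewer cells of a type and less RNA per cell cannot be told apart. All values are log2 signals after RMA, and levels of different genes are not comparable between probe sets.

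None of the 10 genes passed the test between *Rsk2-/Y* and WT pools. Their differences lay between -0.18 and 0.075, and the genotypes overlapped for every gene, while they did not for 0.0159% of all probe sets. A gene was called at an adjusted p under 0.1 from limma over the 18834 probe sets tested and a fold change beyond 1.2. At these thresholds 0 of 10 were called, against 0% of all probe sets. An unadjusted p under 0.05 from limma was reached by 0 of 10, against 1.18% higher and 2.87% lower of all. The exact permutation test over the 12870 arrangements of the pools gave each of the 10 genes an adjusted p of 0.9996. Of the ligands 4 averaged higher and 2 lower, with a median difference of 0.024, and of the antagonists 1 higher and 3 lower, with a median of -0.026. Over all probe sets the median was -0.015, and 59.3% were lower. The p-values measure the spread between these pools.

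Among the ligands of the enamel knot, *Bmp7*, which mice also need for kidney and eye development, gave the largest difference. In the *Rsk2-/Y* pools its lowest, median and highest signals were 9.51, 9.92 and 10.21, against 9.54, 10.08 and 10.31 in WT pools. Its means were 9.85 ± 0.25 in *Rsk2-/Y* and 10.03 ± 0.24 in WT (SD, n = 8 each), a difference of -0.18 (SE 0.11, 95% interval -0.41 to 0.058, exact p = 0.1661). In 7 of 8 *Rsk2-/Y* pools *Bmp7* was below the WT mean, the exception being ABH_26A. The difference was -0.16 in the ABH pools and -0.19 in the AZN pools. Arrangements that keep the series gave a two-sided exact p of 0.03306, which did not pass after adjustment over all probe sets (0.672). With series in the model the limma p was 0.01997 and the adjusted p 0.6265.

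*Bmp2*, another ligand of the enamel knot, averaged 8.31 ± 0.30 in *Rsk2-/Y* and 8.41 ± 0.12 in WT pools (SD, n = 8 each), a difference of -0.10 (SE 0.11, adjusted p = 0.9997, limma). The *Rsk2-/Y* pools reached lower, with a lowest, median and highest of 7.79, 8.33 and 8.69, against 8.23, 8.42 and 8.61 in WT pools. ABH_14A at 7.79 and ABH_16A at 7.98 lay below all 14 other pools, a pair named after their values were seen. The *Bmp2* difference was -0.031 without ABH_14A and -0.16 without AZN_MolairesMutant3. Their epithelial means, 9.95 and 9.97, were within the range of the others, and their muscle means were 9.13 and 7.19.

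*Bmp4*, the mesenchymal ligand that *Msx1* keeps on in the mouse tooth bud, averaged 11.10 ± 0.38 in *Rsk2-/Y* and 11.07 ± 0.37 in WT pools (SD, n = 8 each), and its difference was 0.029 (SE 0.17, interval -0.33 to 0.39). *Inhba*, whose product forms activin A and without which mouse incisors and mandibular molars arrest, averaged 10.91 ± 0.65 in *Rsk2-/Y* and 10.89 ± 0.60 in WT pools, a difference of 0.019 (SE 0.28, interval -0.57 to 0.61). The wide intervals of these ligands go with the gap between the series. With series in the model they were -0.14 to 0.19 for *Bmp4* (SE 0.079) and -0.21 to 0.25 for *Inhba* (SE 0.11). Within the ABH pools the difference was 0.022 for *Bmp4* and 0.042 for *Inhba*, and within the AZN pools it was 0.035 for *Bmp4* and -0.0043 for *Inhba*. *Bmp3*, a ligand that antagonises other BMPs through the activin type II receptor, differed by 0.051 (SE 0.11), and *Bmp5*, of the *Bmp7* subgroup and known from the short ear mouse, by 0.075 (SE 0.13).

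The SD of *Bmp5* was 0.37 in *Rsk2-/Y* pools and 0.15 in WT pools. AZN_MolairesMutant at 7.82 and AZN_MolairesMutant3 at 7.96 stood above the other 6 *Rsk2-/Y* pools, at 6.98 to 7.25, and above all WT pools, at 7.02 to 7.42. Both had osteoblast marker means, 10.56 and 11.33, above those of all other pools, and AZN_MolairesMutant3 had the lowest epithelial mean, 9.56. Over all pools the *Bmp5* slope on the epithelial mean was -1.08 (SE 0.37, adjusted p = 0.3623, limma), which was not called. With the osteoblast mean as a covariate, the *Bmp5* difference between series was -0.017, against 0.19 without it. Whether these markers account for the signals of the 2 pools was not tested.

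Of the antagonists, *Fst*, which encodes follistatin, came nearest to a difference. In the ABH pools its signals were 9.39, 9.62, 9.51 and 9.87 in *Rsk2-/Y* and 9.83, 9.89, 9.88 and 9.98 in WT, so that 3 of 4 *Rsk2-/Y* pools lay below every WT pool. In the AZN pools they were 9.34, 9.79, 9.45 and 9.69 in *Rsk2-/Y* and 9.74, 9.66, 9.32 and 9.77 in WT, and the genotypes overlapped. Over all pools the means were 9.58 ± 0.19 in *Rsk2-/Y* and 9.76 ± 0.20 in WT (SD, n = 8 each), a difference of -0.18 (SE 0.092, interval -0.37 to 0.017, exact p = 0.0948).

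Within ABH the *Fst* difference was -0.30 (SE 0.094, unadjusted p = 0.01025, adjusted p = 0.2455, limma) and within AZN it was -0.058 (SE 0.12). The genotype by series interaction was not called for *Fst* (adjusted p = 0.8315) or for any other of the 10 genes, against 0% of all probe sets, and 0 of 10 had an unadjusted p under 0.05 for it, against 3.87% above and 2.45% below 0 of all. With series, epithelial mean and muscle mean in the model the *Fst* difference was -0.049 and that of *Bmp7* was -0.12. That of *Bmp2* was -0.27 (unadjusted p = 0.04351, adjusted p = 0.9867, limma), the furthest from 0 of the 10 genes in this model. None of the 10 was called in it, against 0% of all probe sets. The 2 marker means themselves differed between genotypes, by -0.25 and 0.53. This model therefore cannot separate a genotype difference from one that goes with these markers. Among the 10 genes, 0 were called within AZN or within ABH, against 0% of all probe sets in AZN and 0.0212% in ABH. An unadjusted p under 0.05 was reached by 0 of 10 within AZN, against 1.44% higher and 1.45% lower of all, and by 2 within ABH, *Bmp7* and *Fst*, both lower, against 4.38% higher and 8.61% lower of all.

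*Nog*, *Chrd* and *Grem1* encode noggin, chordin and gremlin 1, and the difference of each between genotypes was smaller than its SD in either genotype. *Nog* averaged 7.69 ± 0.16 in *Rsk2-/Y* and 7.72 ± 0.11 in WT pools (SD, n = 8 each), a difference of -0.037 (SE 0.068). *Chrd* averaged 7.23 ± 0.13 in *Rsk2-/Y* and 7.24 ± 0.11 in WT pools, a difference of -0.015 (SE 0.061), with an interval of -0.14 to 0.11. *Grem1* averaged 7.89 ± 0.18 in *Rsk2-/Y* and 7.88 ± 0.16 in WT pools, a difference of 0.013 (SE 0.083), with an interval of -0.16 to 0.19.

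**Figure D1:**
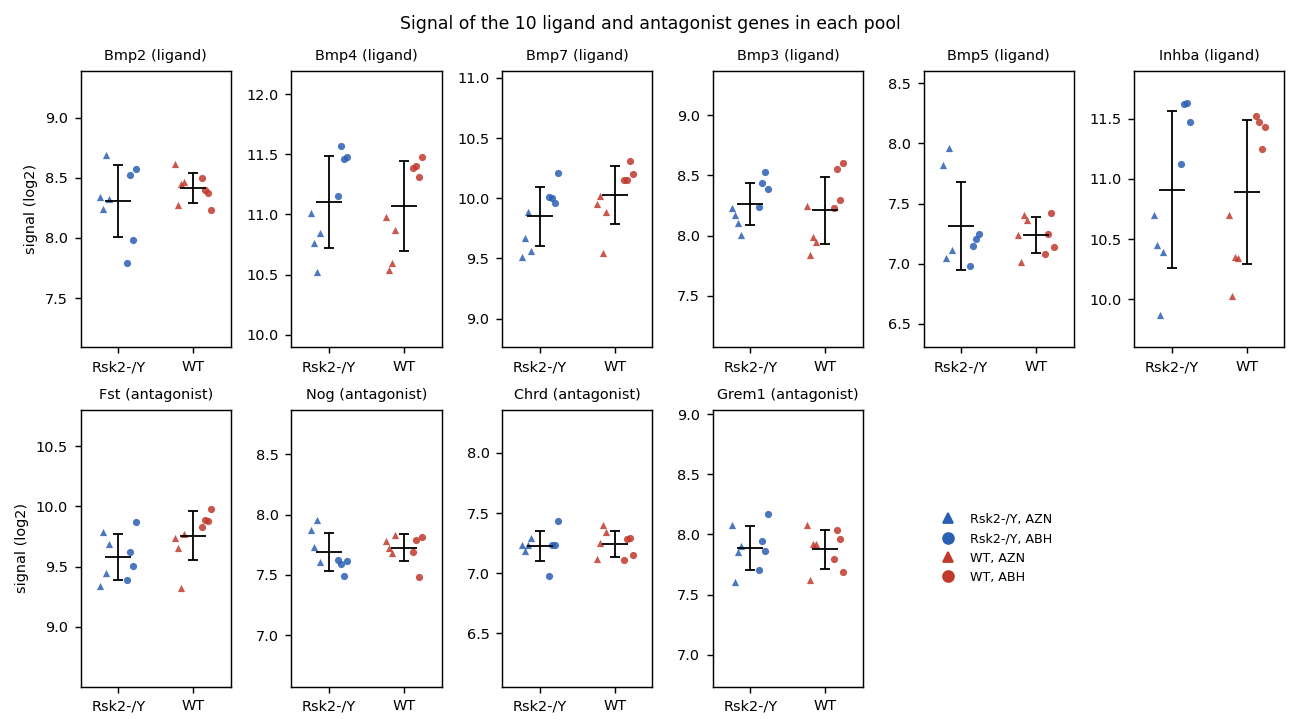
Log2 signal of each gene (vertical axes, all spanning the same range) in the 16 pools, with *Rsk2-/Y* at the left and WT at the right of each panel, AZN pools as triangles and ABH pools as circles. Black bars give the mean and SD of 8 pools. The genotypes overlap for all 10 genes, while AZN and ABH pools form separate clusters for *Inhba* and *Bmp4*.

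The largest differences of these genes lay between the series. With genotype in the model, 4 of 6 ligands were lower in AZN than in ABH pools (*Inhba*, *Bmp4*, *Bmp7* and *Bmp3*), and 0 of 4 antagonists were called. Of all probe sets 16.5% were called, 5.95% higher and 10.6% lower. The median difference was -0.36 for the ligands and 0.0096 for the antagonists, beside 0.016 over all probe sets. Whether the ligands differed from the antagonists in this was not tested. The meaning of the series is unknown, and whatever else differed between them cannot be told apart.

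*Inhba* differed most. In AZN pools its signals were 10.70, 10.45, 9.87 and 10.39 in *Rsk2-/Y* and 10.70, 10.03, 10.35 and 10.34 in WT. In ABH pools they were 11.12, 11.62, 11.63 and 11.47 in *Rsk2-/Y* and 11.52, 11.47, 11.25 and 11.43 in WT. Every AZN pool was below every ABH pool, in both genotypes. The difference was -1.09 (SE 0.11, adjusted p = 2.39e-06, limma), with means of 10.35 ± 0.29 in AZN and 11.44 ± 0.18 in ABH (SD, n = 8 each).

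*Bmp4* had the same separation. In AZN pools it was at 11.01, 10.76, 10.52 and 10.85 in *Rsk2-/Y* and at 10.98, 10.54, 10.60 and 10.87 in WT. In ABH pools it was at 11.15, 11.57, 11.46 and 11.48 in *Rsk2-/Y* and at 11.39, 11.40, 11.31 and 11.48 in WT. The difference was -0.64 (SE 0.079, adjusted p = 1.32e-05, limma). *Inhba* and *Bmp4* were the 2 of 10 genes whose series did not overlap, against 8.95% of all probe sets (5.42% lower in AZN).

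*Bmp7* and *Bmp3* were also lower in AZN, and their series overlapped. *Bmp7* ran from 9.51 to 10.02 with a median of 9.78 in AZN and from 9.96 to 10.31 with a median of 10.15 in ABH, a difference of -0.37 (SE 0.069, adjusted p = 0.000532, limma). *Bmp3* ran from 7.84 to 8.24 with a median of 8.05 in AZN and from 8.23 to 8.61 with a median of 8.41 in ABH, a difference of -0.34 (SE 0.071, adjusted p = 0.00118). *Bmp2* differed by 0.13 (SE 0.10) and *Bmp5* by 0.19 (SE 0.12), and neither was called.

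Of the antagonists, *Nog* averaged 7.77 ± 0.11 in AZN and 7.64 ± 0.12 in ABH pools (SD, n = 8 each). Its difference of 0.14 had an adjusted p of 0.0792 from limma but stayed under the minimum fold change. *Fst* differed by -0.15 (adjusted p = 0.1792), *Chrd* by 0.042 (adjusted p = 0.6041) and *Grem1* by -0.023 (adjusted p = 0.8482). In the WT pools alone *Fst* was called lower in AZN, at -0.27 (adjusted p = 0.08274, limma), whereas in the *Rsk2-/Y* pools alone it was at -0.031. The 4 ligands called were the same in both genotypes taken alone. Of all probe sets 14% were called in the WT pools alone and 19.3% in the *Rsk2-/Y* pools alone.

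**Figure D2:**
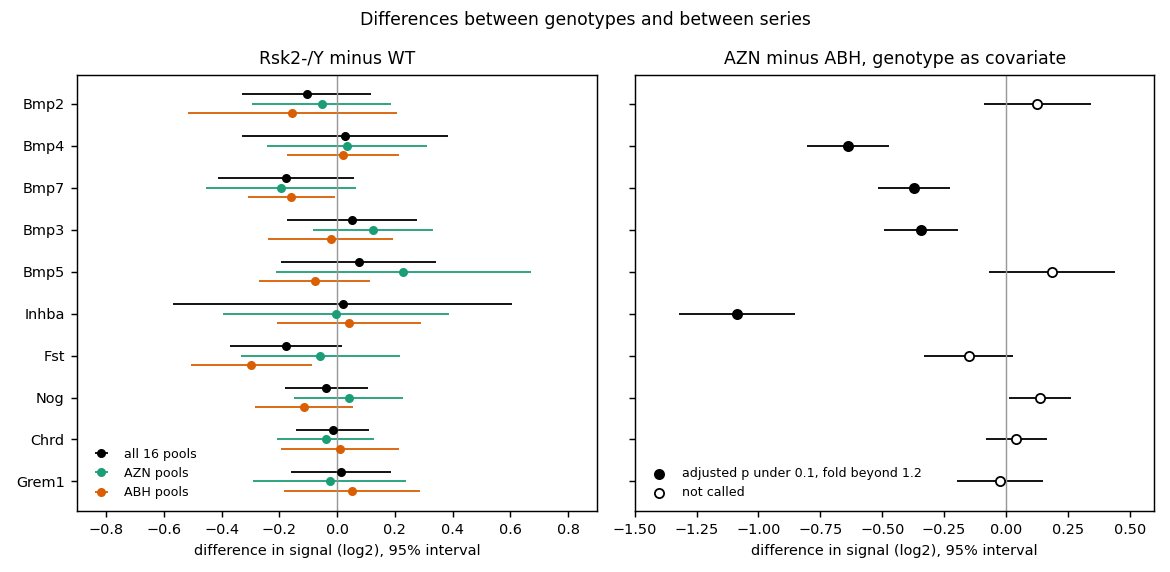
Differences in log2 signal with 95% intervals from limma. The left panel gives *Rsk2-/Y* minus WT in all pools, in AZN pools and in ABH pools, and the right panel AZN minus ABH, where filled points were called. Values between genotypes lie between -0.30 and 0.23, while *Inhba* reaches -1.09 between series.

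Markers of other tissues also differed between the series, in both directions. In AZN pools 18 of 18 muscle markers averaged higher, 9 of them called, and the muscle mean ran from 7.75 to 9.54 in AZN and from 7.19 to 9.13 in ABH. All 6 osteoblast markers tested averaged higher, 3 of them called, and their mean ran from 9.99 to 11.33 in AZN and from 9.57 to 10.23 in ABH. Both erythroid markers tested were called higher, and their mean ran from 7.15 to 8.15 in AZN and from 6.41 to 7.48 in ABH. The mesenchyme mean ran from 10.46 to 10.89 in AZN and from 10.61 to 10.88 in ABH, a difference of -0.082. Of its 11 markers 9 averaged lower in AZN, and 2 were called lower and 1 higher. Of 16 epithelial markers 11 averaged lower, and 3 were called lower and 1 higher. Of 5 endothelial markers 4 averaged lower, 1 of them called. Beside these, 5.95% of all probe sets were called higher and 10.6% lower.

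With the mesenchyme mean as a covariate the difference was -0.93 for *Inhba* and -0.54 for *Bmp4*. All 4 ligands were called, against 14.3% of all probe sets. With the epithelial and muscle means as covariates the difference was -0.94 for *Inhba* and -0.53 for *Bmp4*. With the osteoblast mean it was -1.002 for *Inhba* and -0.60 for *Bmp4*. Again all 4 were called in each model, against 13.4% of all probe sets in the former and 14.3% in the latter. With the erythroid mean the difference was -0.94 for *Inhba* and -0.57 for *Bmp4*, and 18.3% of all probe sets were called. *Bmp3*, at -0.26 with an adjusted p of 0.1154 from limma, was no longer called.

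Set against each other within a pool, ligands and antagonists were compared as scores. Each gene's signal was centred on its mean over the 16 pools and averaged over the 6 ligands and over the 4 antagonists. The ligand score minus the antagonist score was 0.018 ± 0.20 in *Rsk2-/Y* and -0.018 ± 0.21 in WT pools (SD, n = 8 each), a difference of 0.036. That difference was 0.044 within the AZN pools and 0.029 within the ABH pools.

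Between series, the same score ran from -0.29 to -0.041 in AZN pools and from 0.11 to 0.28 in ABH pools. Each gene was centred over 8 AZN and 8 ABH pools, so any series difference puts the 2 series means on opposite sides of 0. The ligand score differed by -0.35 and the antagonist score by 0.0015. *Nog*, *Chrd* and *Grem1*, like *Bmp5*, had series means of 7.18 to 7.90, nearer the array medians (6.74 to 6.94) than the other genes. Whether signal level bears on the flat antagonist score was not tested. The ligands did not move as a class. The differences averaged were -1.09 for *Inhba*, -0.64 for *Bmp4*, -0.37 for *Bmp7* and -0.34 for *Bmp3*, but 0.13 for *Bmp2* and 0.19 for *Bmp5*. ABH_14A, one of the *Rsk2-/Y* pools rich in muscle markers, was the ABH pool with the lowest ligand score (-0.084) and the lowest antagonist score of all 16 (-0.20), so its balance stayed with that of the other ABH pools. These scores describe the genes chosen and carry no test.

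**Figure D3:**
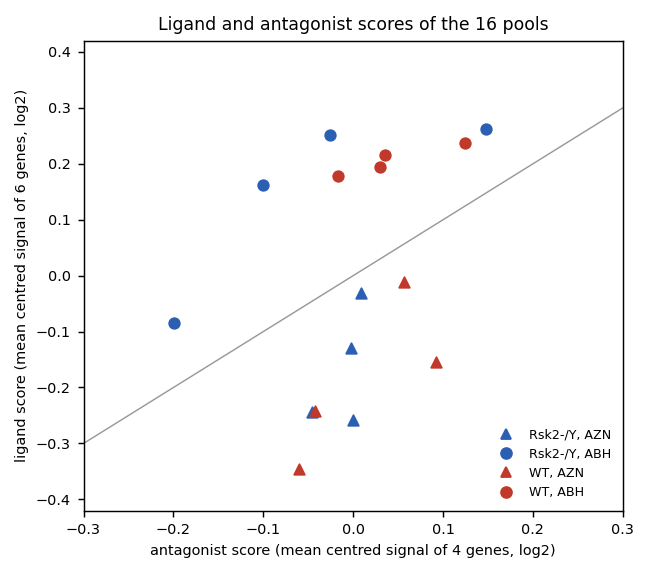
Ligand score (vertical) against antagonist score (horizontal), both mean centred log2 signals, of the 16 pools, with *Rsk2-/Y* in blue, WT in red, AZN as triangles and ABH as circles. On the grey line the scores are equal. All 8 AZN pools lie below it and all 8 ABH pools above it, with both genotypes on each side.

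*Bmp4* and *Inhba* also varied with the dental mesenchyme markers inside each series. With genotype and series in the model, *Inhba* changed by 1.89 per unit of the mesenchyme mean (SE 0.23, adjusted p = 0.000411, limma) and *Bmp4* by 1.25 (SE 0.20, adjusted p = 0.00277). These were 2 of 10 genes called, against 9.12% of all probe sets (6.89% with a positive slope). Neither gene is among the 11 markers. In the ABH pools alone the slope was 1.83 for *Inhba*, still called, and 1.21 for *Bmp4* (adjusted p = 0.1367). In the AZN pools alone it was 1.96 for *Inhba* (adjusted p = 0.1086) and 1.32 for *Bmp4* (adjusted p = 0.1904), neither of them called. Both signals and the marker mean come from the same arrays. A positive slope on this mean was not particular to genes of mesenchyme. All 5 endothelial markers (median slope 1.10, 3 called) and all 4 macrophage markers (1.10, 2 called) tested had one. All 18 muscle markers (-3.28, 10 called) and all 6 osteoblast markers (-0.75, 0 called) had a negative slope.

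*Grem1* had the next steepest positive slope, of 0.83 (SE 0.32, adjusted p = 0.1494). It was called with 2 of the pools left out one at a time, ABH_13A and AZN_MolairesMutant3. The other 7 genes had slopes between -0.51 for *Bmp7* and 0.54 for *Bmp3*, and none was called.

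**Figure D4:**
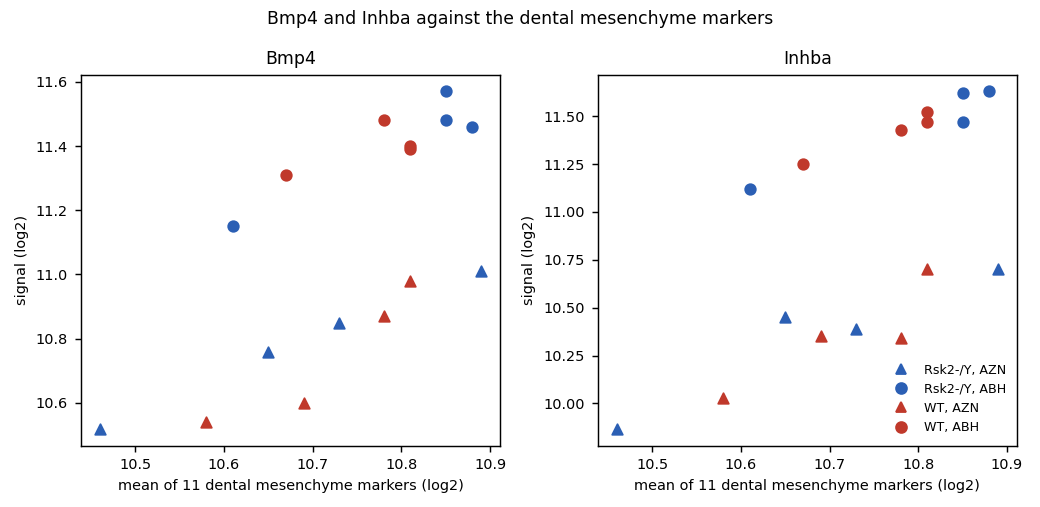
Log2 signal of *Bmp4* (left) and *Inhba* (right) against the mean log2 signal of 11 dental mesenchyme markers in the 16 pools, with *Rsk2-/Y* in blue, WT in red, AZN as triangles and ABH as circles. Both genes are higher where the markers are higher within each series, and the AZN pools run below the ABH pools along the whole axis.

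Against the epithelial mean 0 of 10 genes were called by limma, against 0.727% of all probe sets. The steepest slope was that of *Bmp5*, at -1.08 (SE 0.37, adjusted p = 0.3623), the only one of the 10 with an unadjusted p under 0.05, against 2.91% of all probe sets with a negative slope. *Fst* had the highest, at 0.51 (SE 0.30). Against the muscle mean 0 of 10 were called, against 3.57% of all probe sets, and 2 had an unadjusted p under 0.05 with a negative slope, against 11.4% of all, *Inhba* at -0.25 (SE 0.087, adjusted p = 0.1533) and *Bmp4* at -0.18 (SE 0.062, adjusted p = 0.1545). Both were called without AZN_MolairesWT1, and *Bmp4* alone without ABH_25A.

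The rest of the pathway was read from 5 lists, and between genotypes no gene of any list was called. Of 19 other BMP, GDF and activin ligands tested 12 averaged higher in *Rsk2-/Y* pools, with a median of 0.0073. *Mstn*, which encodes the muscle growth inhibitor myostatin, had the largest difference, 0.46, and followed the muscle mean with a slope of 1.07 (adjusted p = 8.98e-05, limma). *Gdf2*, which encodes BMP9, was next at 0.076. Of 19 other extracellular antagonists and modulators 8 averaged higher, and *Sostdc1*, a secreted inhibitor of BMP and WNT signals whose loss gives extra teeth in mice, was at -0.18.

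*Tll1*, a tolloid-like protease that cleaves chordin, was at 0.13. Of 13 receptors 3 averaged higher, and the type I activin receptor gene *Acvr1b* was at -0.12 and the type II receptor gene *Acvr2b* at -0.086. Of 12 SMADs and partners 3 averaged higher, with *Skil*, a repressor of SMAD complexes, at 0.11 and *Smad9* at 0.10. Of 14 response genes 5 averaged higher, with *Hey1* at 0.13 and *Tgif1*, a corepressor of SMADs, at -0.12.

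Between series genes of each list were called, to be read against the 5.95% of all probe sets called higher and the 10.6% called lower in AZN pools. No other ligand was called lower in AZN pools and 1 of 19, *Gdf11*, an activin-like ligand of axial patterning, was higher at 0.30. Of the 19 other antagonists and modulators 5 were lower and 2 higher. *Sostdc1* fell by 0.72 (adjusted p = 0.00308, limma), *Bmper*, which binds BMPs, by 0.41, *Fstl4*, a follistatin-like gene, by 0.32, *Chrdl1*, a chordin-like gene, by 0.31 and *Tll1* by 0.27. *Htra1*, a secreted protease, rose by 0.42 and *Nbl1*, a member of the DAN family of BMP antagonists, by 0.28.

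Of 13 receptors 4 were lower in AZN pools and 0 higher. They were the BMP type II receptor gene *Bmpr2* at -0.57 (adjusted p = 9.24e-07, limma), the type I receptor genes *Acvr1* at -0.36 and *Bmpr1a* at -0.31, and *Acvr2a*, a type II receptor for activins and BMPs, at -0.28. Of 12 SMADs and partners, *Smad5*, the BMP effector, fell by 0.45 and *Skil* by 0.45. Of 14 response genes 4 were lower, *Id4* at -0.72, *Dlx5* at -0.70, *Msx2* at -0.64 and *Tgif1* at -0.32, and the median of the 14 was -0.20. Of these, *Id4*, *Dlx5* and *Msx2* are transcriptional regulators induced by BMPs in several tissues. The other response genes on the list were called in neither direction, and BMP activity was not measured.

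**Figure D5:**
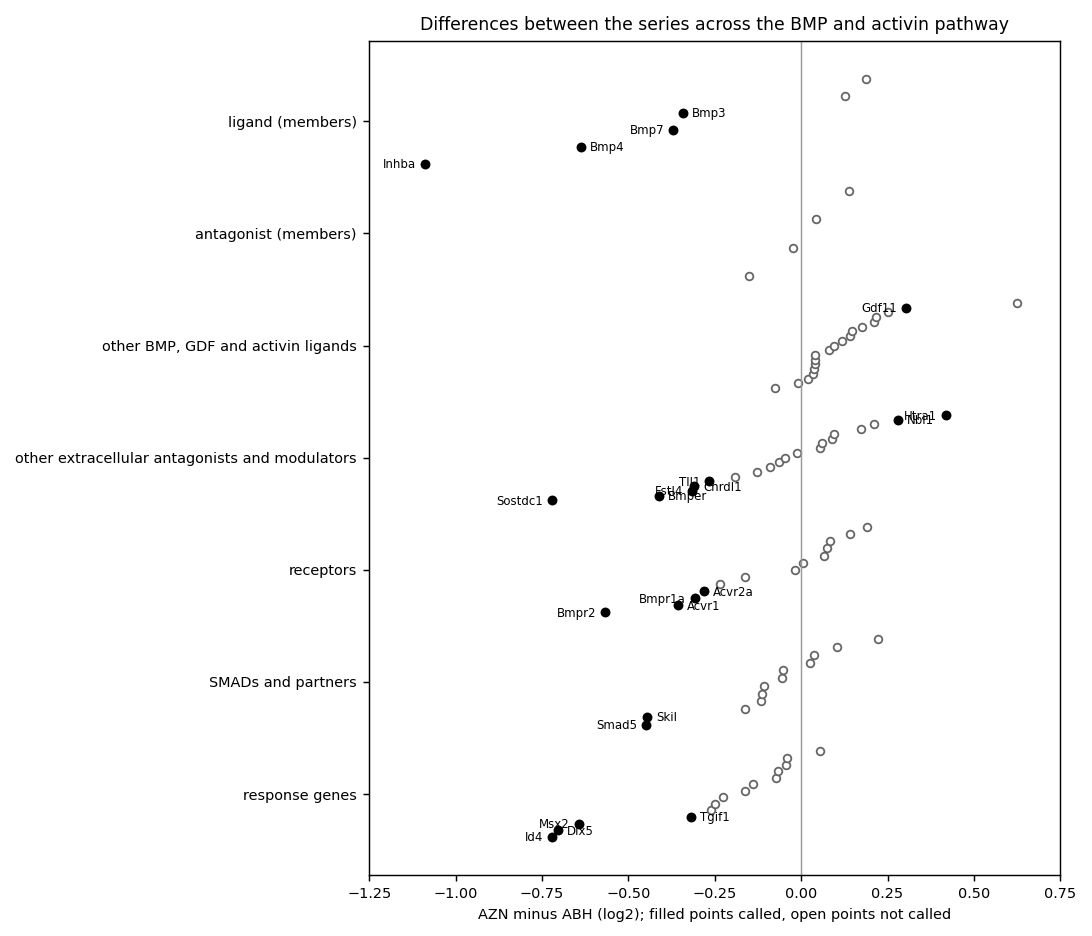
AZN minus ABH differences in log2 signal (horizontal) of every gene tested, 1 point a gene, in the ligands and antagonists described and in 5 further lists of the pathway. Filled points with names were called and open points were not. *Inhba* at -1.09 is the lowest of all, and 13 of the 14 response genes lie below 0, as did 46.5% of all probe sets.

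Genes of the lists were also called for their slope on the mesenchyme mean, beside 9.12% of all probe sets (6.89% with a positive slope). Of the 19 other ligands, *Bmp6* (0.99) and *Gdf10* (1.13), the closest relative of *Bmp3*, were called with a positive slope and *Mstn* (-4.02) with a negative one. Of the 19 other antagonists and modulators *Sostdc1* (2.10) and *Tll1* (0.88) were called, and of the 13 receptors *Eng* (1.004), a coreceptor of endothelium. Of the 12 SMADs and partners 5 were called, *Smad7* (1.01) and *Smurf1* (0.59), both inhibitors of the pathway, and *Ski* (0.73), *Smad2* (0.66) and *Smad5* (0.56). Of the 14 response genes 5 were called, *Lef1* (2.04), *Msx1* (1.73), *Msx2* (1.502), *Id4* (1.18) and *Dlx5* (1.17), and *Msx1* is itself 1 of the 11 markers. Against the epithelial mean, *Bmpr1b*, a BMP type I receptor gene, was called at -0.98, and against the muscle mean *Tll2*, another tolloid-like protease gene, at 0.28.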

How the data were processed

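RNA from 16 pools of molar germs was measured on Affymetrix Mouse Gene 1.0 ST arrays. The log2 signals per probe set were computed by the authors with RMA in Affymetrix Expression Console 1.3.1.187 and deposited as 1 table. RMA corrects the background, equalises the arrays and summarises the probes, so a shift common to most genes of a pool would be removed, and values near 5 lie close to background (20th percentile 4.79). Values ran from 2.57 to 13.97, array medians from 6.74 to 6.94 and correlations between samples from 0.976 to 0.997. Arrays give no counts, and their number limits the precision. Nothing was normalized further. The labels and the study's methods give different amounts of input RNA.

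Of 35556 probe sets, 21789 pair with 1 symbol in the platform annotation, 1621 with several and 12146 with none. Those with 1 symbol and a signal above 5 in at least 1 sample, 18834 with 17215 symbols, were fitted in R 4.3.3 by the lmFit and eBayes functions of limma 3.58.1, with two-sided p-values adjusted by Benjamini-Hochberg over all of them. Calls needed an adjusted p under 0.1 and, between groups, a fold change beyond 1.2. Slopes on marker means had genotype and series as covariates and no minimum fold change. Of several probe sets of a gene, that of the highest mean over the 16 pools was used. Single genes were also compared by exact permutation over 12870 arrangements, or over the 4900 that keep the series, where the smallest p of the 12870 is 0.000155. The methods' t-test, array weights, other scalings, filters, covariates and left-out pools were run as alternatives, and 7 alternatives were chosen after seeing the data. The fits were also run on simulated data with independent noise for each probe set and pool. Such data lack the differences that many genes of the real pools share, so that run does not bear on the calls made here. Named genes are the 10 described, the genes of the pathway lists that were called, the 2 with the largest difference between genotypes in each list, and *Sostdc1*. These genes, the lists and the tests were chosen with earlier results of these data known. Promoter windows come from RefSeq, and the files name no genome build, so no coordinates of probe sets are given. Figures were drawn with matplotlib in Python.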

Additional observations from a re-analysis of the deposited data

Results flagged for a closer look

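In the 20 groups of 8 pools examined (10 genes in 2 genotypes), 1 pool stood apart from the others of its genotype by Dixon's criterion. *Nog* had a log2 signal of 7.48 in the WT pool ABH_13A, against 7.68 in the next lowest WT pool and 7.83 in the highest. Chance alone gives such a mark in about 1 in 20 groups. Without this pool, as with all others left out one at a time, *Nog* was not called between genotypes.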

How the results depend on the processing

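Between genotypes 0 of 10 genes were called in any of 30 alternatives, beside at most 0.0531% of all probe sets. The ligand minus antagonist difference stayed between -0.0019 and 0.076. *Bmp2*, *Bmp7* and *Fst* kept a negative sign in all 30. Between series 3 to 5 genes were called over 29 alternatives, *Inhba*, *Bmp4* and *Bmp7* in every one. The 5 came with no minimum fold change, against 44.8% of all probe sets, and in WT pools alone, against 14%. The 3 came with the erythroid mean, against 18.3% of all. The interaction and the slopes on the epithelial mean gave 0 calls throughout. The unnumbered AZN pools of the 2 genotypes deviated together (r = 0.68), while those numbered 1 and 3 did not (-0.034 and -0.013), so the numbers were not taken as pairs. An alternative with series and a replicate block joined AZN pools of the same number, and also the unnumbered ones, across genotypes. In it 0 of 10 genes were called, against 0.00531% of all probe sets.

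The slopes on the mesenchyme mean gave 2 calls, 1 in ABH pools alone, 0 in AZN pools alone and 2 to 3 with single pools left out. Those on the muscle mean gave 2 calls with no covariate and 0 to 2 with single pools left out (1 without ABH_25A). The cause was not tested, other than that fewer pools enter within a series.

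Uncalled differences near 0 changed sign. Between genotypes, those in ABH pools alone were -0.023 for *Bmp3*, -0.078 for *Bmp5* and 0.0097 for *Chrd*, and in AZN pools alone -0.0043 for *Inhba*, 0.040 for *Nog* and -0.026 for *Grem1*. Array weights gave -0.022 for *Inhba* and 0.025 for *Chrd*, and series with epithelial and muscle means gave -0.18 for *Bmp5* and -0.069 for *Grem1*. Without the 2 pools richest in muscle markers *Chrd* was at 0.026. With single pools left out, *Bmp3* ran from -0.0030 to 0.11, *Bmp4* from -0.047 to 0.11, *Bmp5* from -0.017 to 0.12, *Inhba* from -0.10 to 0.17, *Chrd* from -0.045 to 0.020 and *Grem1* from -0.027 to 0.054. Between series, *Grem1* was at 0.016 in WT pools alone, at 0.015 with epithelial and muscle means, at 0.045 with the mesenchyme mean, and from -0.056 to 0.020 with single pools left out. *Bmp2* was at -0.066 and *Bmp5* at -0.017 with the osteoblast mean, and *Bmp2* at -0.054 and *Chrd* at -0.11 with the erythroid mean.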
